A study of Arabidopsis thaliana with 6 samples.

Results

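The 6 genes described here encode proteins of the cold and dehydration response of Arabidopsis thaliana. COR15A (AT2G42540), COR15B (AT2G42530), COR47 (AT1G20440) and LEA4-5 (AT5G06760) encode protective proteins, and STZ (AT1G27730) and PUB19 (AT1G60190) encode regulators. They were chosen by their function together with values measured on these arrays: the difference between genotypes, the values by replicate number and the covariation over the arrays. Those 3 kinds of value are therefore given as a description, with no test. Each gene had 1 probe set naming that gene alone, so 6 of 13355 genes with such a probe set are described; tests ran over all 22746 probe sets.

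When Arabidopsis is cooled or dried, CBF and DREB transcription factors and abscisic acid signalling switch on genes for late embryogenesis abundant (LEA) proteins and dehydrins. These are very hydrophilic proteins that are largely disordered in water and protect membranes and enzymes from freezing and drying. COR15A and COR15B are small LEA proteins of the chloroplast stroma, COR47 is a dehydrin, and LEA4-5 belongs to group 4 of the LEA proteins. STZ, also called ZAT10, is a C2H2 zinc finger repressor of transcription that is quickly induced by salt, drought, cold and wounding. PUB19 is a U-box E3 ubiquitin ligase that dampens abscisic acid and drought responses.

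Transcripts were measured in whole seedlings, shoot and root together, aged 7 days after 2 days of vernalization of the seed and grown on full-strength MS medium. Biotin-labelled RNA was hybridised to Affymetrix arrays, 3 for plants carrying the empty vector pCAMBIA 1302 and 3 for plants expressing PaWRKY1, a WRKY-type transcription factor by its name, from the constitutive 35S promoter. Neither the number of transgenic lines nor any cold or drought treatment is given in the labels, and the transgene itself was not analysed here. In RNA of whole seedlings, a change in the number of cells that express a gene and a change in RNA per cell cannot be told apart.

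Each value is the deposited value of a probe set after centring on the mean of the 3 empty-vector arrays, so that the control mean is 0 and the mean of the 35S-PaWRKY1 arrays is the difference. No source used here states the base of the logarithm or the sign; they were taken by convention as log2 and as higher for more transcript, and a fold is given only as "if log2". No value is an expression level, so levels were not compared between genes and the labelled tissue could not be checked by the level of its markers. Control replicate 3 stood apart from the other controls. It was the control farthest from the control median in 42.7% of probe sets, against 33.0% for replicate 1 and 24.3% for replicate 2. Of the 35S-PaWRKY1 arrays, replicate 3 was the farthest in 42.0%. Differences without both replicate 3 arrays are therefore given beside those from all 6 arrays. They were added later, and each of their SE comes from 2 arrays per group.

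COR15A showed the highest difference of the 6 genes. The control arrays 1, 2 and 3 were at 0.89, -0.11 and -0.78, and the 35S-PaWRKY1 arrays at 2.17, 1.85 and 1.19. All 3 35S-PaWRKY1 arrays lay above all 3 controls, and replicate 3 was the lowest array of both groups. The lowest 35S-PaWRKY1 array was 0.30 above the highest control, a gap smaller than the SD within either group (0.838 for controls and 0.500 for 35S-PaWRKY1, n = 3 each). The difference of the group means was 1.74 (SE 0.436, n = 3 per group; 3.33-fold if log2). A larger difference in either direction was found for 0.0747% of all probe sets. As the gene was chosen with this difference known, that share is a description. Set against the control of its own number, the 35S-PaWRKY1 array was higher by 1.28, 1.96 and 1.97 for replicates 1, 2 and 3. The difference was 1.62 (SE 0.328) without both replicate 3 arrays and stayed between 1.35 and 2.18 with single arrays left out.

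COR15B is the gene next to COR15A on the chromosome in the order of protein-coding genes, and encodes a close relative of the same chloroplast protein. Its control arrays were at 0.31, 0.12 and -0.43, and its 35S-PaWRKY1 arrays at 0.20, 0.19 and 0.04. The groups overlapped fully: every 35S-PaWRKY1 array lay within the range of the controls. The difference was 0.14 (SE 0.19, n = 3 per group; 1.1-fold if log2), and 36.0% of all probe sets had a larger one. It was -0.02 (SE 0.114) without both replicate 3 arrays and -0.07 without control replicate 3, so its sign rested on that array. The 35S-PaWRKY1 arrays were close to each other, with an SD of 0.0899 against 0.388 in the controls. Side by side, the neighbouring genes thus differed from control by 1.74 and 0.14. Whether any probe of one detects transcripts of the other was not tested.

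COR47 lay above control in 7 of the 9 pairs of a 35S-PaWRKY1 array and a control. Its controls were at 0.17, 0.13 and -0.30, and its 35S-PaWRKY1 arrays at 1.08, 0.65 and 0.02. The groups overlapped through 35S-PaWRKY1 replicate 3, which lay below control replicates 1 and 2. The difference was 0.59 (SE 0.272, n = 3 per group; 1.5-fold if log2). Same-numbered arrays differed by 0.92, 0.52 and 0.32, each time with 35S-PaWRKY1 higher. Of the 6 genes, COR47 was the one with a wider spread among 35S-PaWRKY1 arrays (SD 0.534) than among controls (SD 0.26). The difference was 0.72 (SE 0.163) without both replicate 3 arrays, and 0.34 without 35S-PaWRKY1 replicate 1, the highest array. ERD10, the dehydrin gene beside COR47 on the chromosome, had no probe set naming it alone and was not analysed here.

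LEA4-5 gave controls at 0.74, 0.81 and -1.55 and 35S-PaWRKY1 arrays at 1.39, 1.31 and 0.08. Replicate 3 was far below the others in both groups, and 35S-PaWRKY1 replicate 3 lay under control replicates 1 and 2. The difference was 0.92 (SE 0.678, n = 3 per group; 1.9-fold if log2). Each 35S-PaWRKY1 array was above the control of its own number, by 0.65, 0.49 and 1.63. Control replicate 3 carried much of the difference and of its error: without it the difference was 0.15. Without both replicate 3 arrays, the farthest for this gene, it was 0.57 (SE 0.104, n = 2 per group). A normalization to equal quantiles gave 0.40. The control SD of 1.34 was exceeded by 0.251% of probe sets.

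STZ was the one gene of the 6 with a mean below control. Its controls were at 2.05, -0.72 and -1.33, and its 35S-PaWRKY1 arrays at -0.57, -1.48 and -0.88. Control replicate 1 stood far above the other 5 arrays, which spanned -1.48 to -0.57. The difference was -0.98 (SE 0.822, n = 3 per group; 1.97-fold lower if log2), and it was 0.05 without control replicate 1, so the sign of the mean rested on that array. Same-numbered arrays differed by -2.62, -0.75 and 0.45. Without both replicate 3 arrays the difference was -1.69 (SE 0.879). The control SD of 1.80 was exceeded by 0.0791% of probe sets, while the 35S-PaWRKY1 arrays had an SD of 0.463.

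PUB19 also varied mainly among controls. These were at 0.73, 1.20 and -1.93, and the 35S-PaWRKY1 arrays were at 0.49, 0.57 and -0.15, all within the control range. Control replicate 3 lay below every other array. The difference was 0.30 (SE 0.768, n = 3 per group; 1.23-fold if log2), with same-numbered arrays at -0.24, -0.63 and 1.78. Its sign changed to -0.67 without control replicate 3, to -0.44 (SE 0.175) without both replicate 3 arrays, to -0.22 after a normalization to equal quantiles and to -0.19 with array weights. The control SD was 1.69, which 0.101% of probe sets exceeded, and the 35S-PaWRKY1 SD was 0.397.

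**Figure D1:**
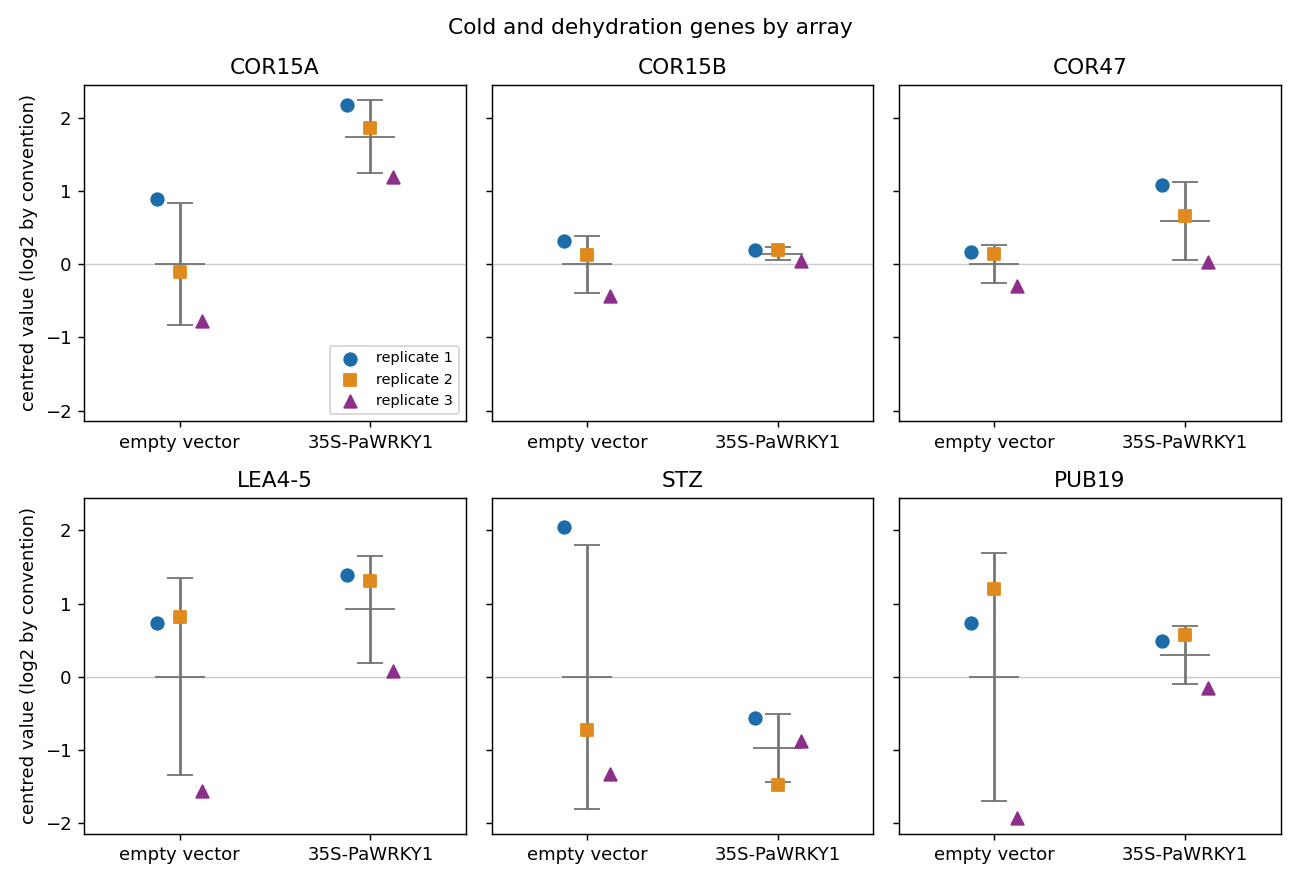
Centred values (log2 by convention) of the 6 genes on each array, with symbols for the replicate number and bars for the mean ± SD of 3 arrays. COR15A has all 35S-PaWRKY1 arrays (1.19 to 2.17) above all controls (-0.78 to 0.89); in the other 5 panels the groups overlap, and control replicate 3 is the lowest control in all 6.

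In order of the difference from control, the genes ran COR15A (1.74), LEA4-5 (0.92), COR47 (0.59), PUB19 (0.30), COR15B (0.14) and STZ (-0.98). The SE was 0.678 for LEA4-5, 0.768 for PUB19 and 0.822 for STZ. Neighbours in this order lay closer than the larger of their SE, apart from those at its ends. These were COR15A over LEA4-5, at 0.81 on SE of 0.436 and 0.678, and COR15B over STZ, at 1.12 on SE of 0.19 and 0.822. The order itself was not tested. With limma over all probe sets, 0 of the 6 genes had an adjusted p under 0.05, where 0.0308% of all probe sets did, and 1 (COR15A) had an unadjusted p under 0.05, where 8.01% did. With the replicate number as a block these counts were 0 and 3, where 0.0264% and 10.8% of all probe sets passed. The groups did not overlap for 1 of 6 genes, against 14.5% of all probe sets, made up of 5.34% with 35S-PaWRKY1 higher and 9.17% with it lower. As the genes were chosen with this contrast in view, these counts are given beside the background and nothing is read from them.

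**Figure D2:**
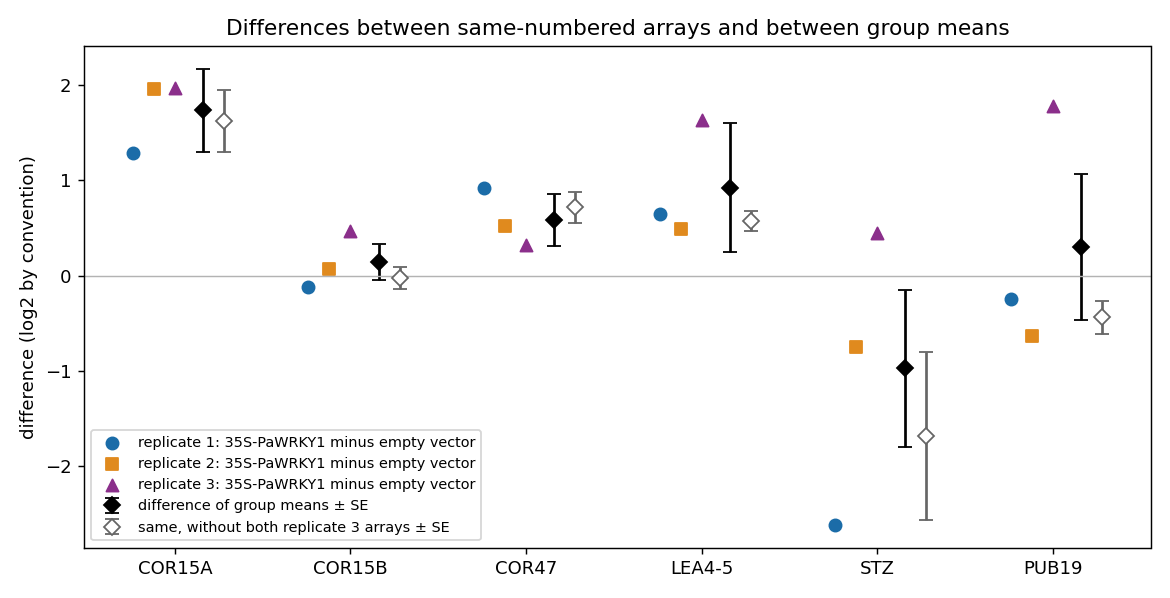
Difference of 35S-PaWRKY1 minus empty vector (log2 by convention) for each replicate number, for the group means ± SE of the limma fit (filled diamonds), and for the group means without both replicate 3 arrays ± SE (open diamonds). COR15A, COR47 and LEA4-5 lie above 0 for all 3 numbers, while COR15B, STZ and PUB19 have differences on both sides of 0.

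The replicate number marked a shared pattern. Control replicate 3 was the lowest control for 6 of 6 genes, where 34.2% of all probe sets had it lowest. Replicate 3 was the lowest array of both groups for 5 of 6 genes, all but STZ, against 19.0% of all probe sets. Control replicate 1 was the highest control for 4 of 6 genes (COR15A, COR15B, COR47 and STZ), against 27.6%. The number was one of the grounds on which the genes were chosen, so these shares are a description. The fall from the mean of control replicates 1 and 2 to control replicate 3 was widest for PUB19 and LEA4-5, the genes at -1.93 and -1.55 on that array. The spread of all 6 genes among controls was above the median control SD of 0.148, and 5 of 6 had a smaller SD among 35S-PaWRKY1 arrays than among controls, as did 59.8% of all probe sets.

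**Figure D3:**
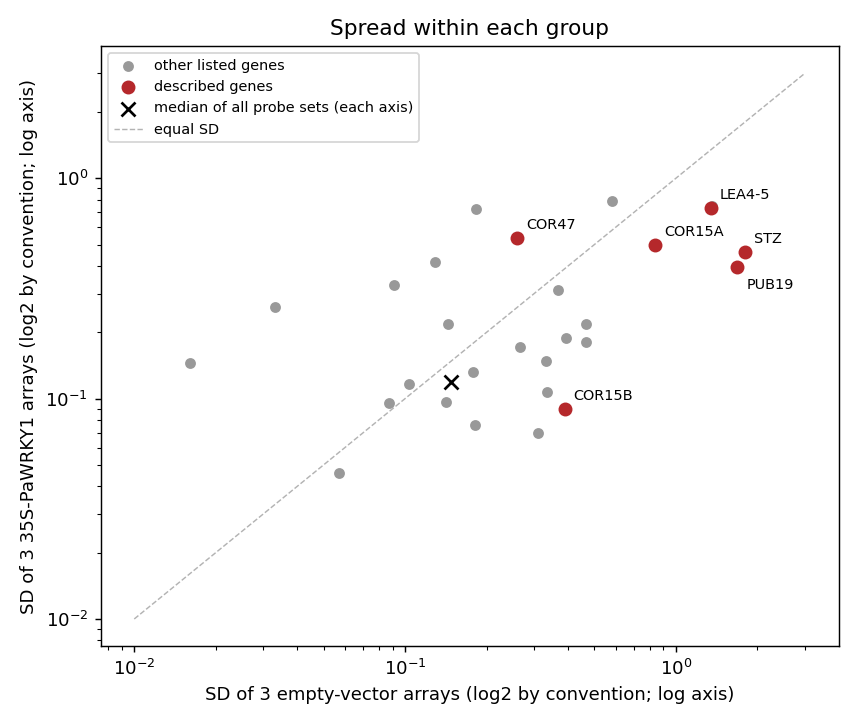
SD of the 3 empty-vector arrays against SD of the 3 35S-PaWRKY1 arrays (log2 by convention, both axes logarithmic) for the 6 genes and the other listed genes; the cross gives the medians over all probe sets, 0.148 and 0.118. STZ (1.80) and PUB19 (1.69) have the widest control spread of the genes plotted, followed by WRKY53 (1.36) and LEA4-5 (1.34), whose points nearly coincide, and COR47 is the one of the 6 above the line of equal SD.

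Over the 6 arrays the 4 protective protein genes varied together (r of 0.63 to 0.92), PUB19 varied with COR15B and LEA4-5, and STZ had r of -0.03 to 0.54 with the others. Covariation was one of the grounds on which the genes were chosen, and same-numbered arrays deviate together, so these coefficients describe the arrays and carry no p. Of 15 pairs, 7 had a Pearson r of at least 0.7, and r ran from -0.03 (COR47 with STZ) to 0.92. The highest were COR15B with LEA4-5 (r = 0.92, Spearman rho = 0.66), COR15B with PUB19 (0.92 and 0.6), LEA4-5 with PUB19 (0.91 and 0.49) and COR15A with COR47 (0.87 and 0.83). COR47 with LEA4-5 had r of 0.83 and the highest rank correlation, rho of 0.94.

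Much of this rested on control replicate 3. Without it, 3 of 15 pairs kept an r of at least 0.7 or came to it, and r ran from -0.55 (COR15A with PUB19) to 0.86 (COR47 with LEA4-5). COR15A with COR47 stayed at 0.79, whereas COR15B with PUB19 went from 0.92 to 0.42, LEA4-5 with PUB19 from 0.91 to 0.46 and COR15A with COR15B from 0.71 to 0.17. COR15B with STZ went the other way, from 0.54 to 0.72. With the 2 arrays farthest from the median of the first gene left out, r was taken over 4 arrays, which differed by pair. Without control replicates 2 and 3, it was 0.93 for COR15A with COR47 but -0.12 for COR15A with COR15B. Without control replicates 1 and 3, it was 0.45 for COR15B with PUB19, and without replicate 3 of both groups -0.74 for LEA4-5 with PUB19. COR47 with LEA4-5 was at 1.00. For that pair 35S-PaWRKY1 replicates 1 and 2 were left out and control replicate 3 was kept. Among deviations from the group means, which leave out the genotype difference, r was 0.78 for COR15A with COR47, 0.78 for COR47 with LEA4-5, 0.96 for LEA4-5 with PUB19 and 0.93 for COR15B with PUB19. In these deviations STZ had r of 0.83 with COR15A and 0.76 with COR15B, higher than over the values themselves (0.06 and 0.54). With the other 3 genes it had r of 0.34 to 0.51. All these deviations include control replicate 3. Without that array, the values themselves gave STZ r of -0.25 with COR15A and 0.72 with COR15B.

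**Figure D4:**
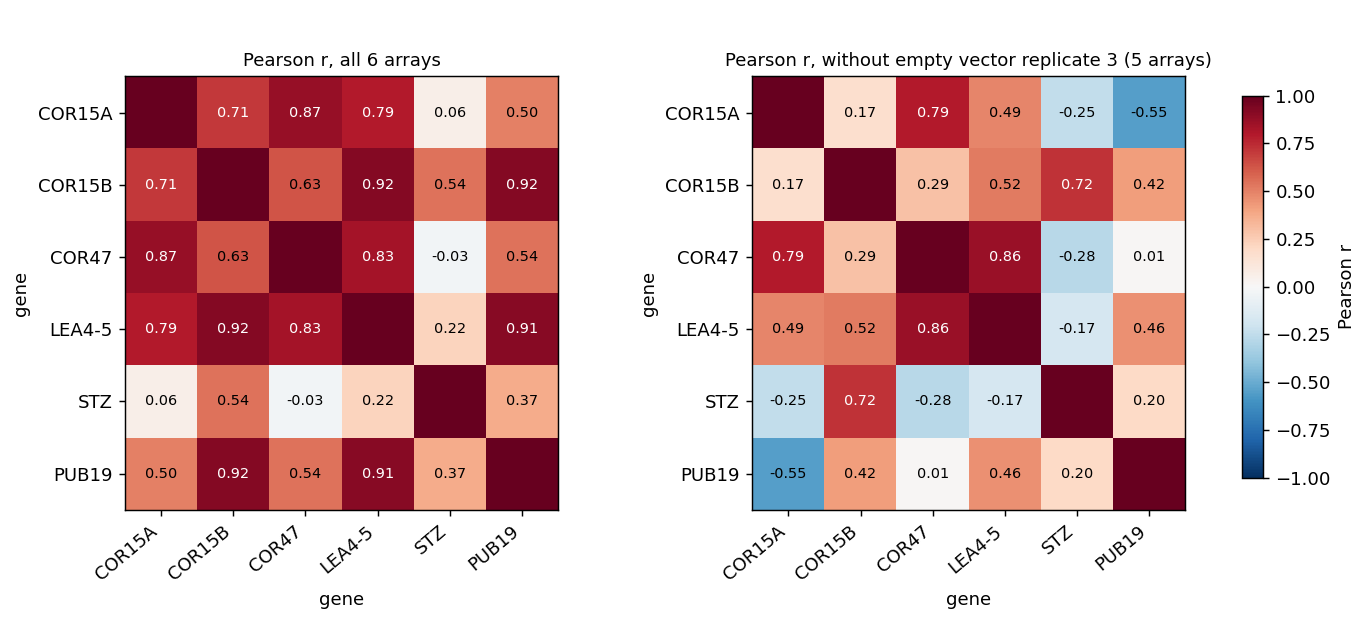
Pearson r between the 6 genes over all 6 arrays (left) and over the 5 arrays without empty vector replicate 3 (right). COR15A with COR47 (0.87 and 0.79) and COR47 with LEA4-5 (0.83 and 0.86) are high in both panels, while the pairs of PUB19 with COR15B and LEA4-5 drop from 0.92 and 0.91 to 0.42 and 0.46.

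Other probe sets also reached coefficients as high as those between the 6 genes, in shares that varied by pair. For COR15B, 1.25% of all probe sets had an r at least as high as that of PUB19. For COR15A, 1.86% had one at least as high as that of COR47, and 6.74% one at least as high as that of COR15B. Among 1579 other probe sets with 1 gene and a name beyond the locus tag, the patterns most like COR15A were those of GRX480, a glutaredoxin gene (r = 0.995, n = 6 arrays), CCR2, a cinnamoyl-CoA reductase gene (0.992), and IQD23 (0.979). GRX480 had the same order of arrays as COR15A (rho = 1.0) on a smaller scale, with controls at 0.17, -0.01 and -0.16 and 35S-PaWRKY1 arrays at 0.43, 0.40 and 0.20. Those most like COR15B were LSM3A, for a protein of RNA processing (0.996), PCME (0.980) and NRPB6B, for an RNA polymerase II subunit (0.979).

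For COR47 the closest were VPS60.1 (0.979), the laccase gene LAC16 (0.963) and UBC32, for a ubiquitin-conjugating enzyme (0.961). For LEA4-5 they were FLDH (0.983), ATMPK8, for a MAP kinase (0.978), and BUG22 (0.975), and for PUB19 the glutathione reductase gene GR1 (0.986), SDRB (0.985) and BPM3 (0.984). The patterns most like STZ were those of LCR66 (0.989), chx28 (0.978) and AGL92 (0.967), each highest in control replicate 1, at 0.19, 0.31 and 0.37 against 2.05 for STZ. None of the 6 genes was among the 3 closest of another.

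The rest of the pathway was looked up in 8 lists of 113 genes, drawn up by function with earlier results known. Through the annotation used here 24 genes in 6 lists had a probe set, the 6 genes included. The 17 CBF pathway regulators and the 23 abscisic acid and dehydration markers were matched to none and were not analysed here. Of the 18 matched genes beside the 6, 0 passed limma's adjusted threshold in either direction (0.0308% of all probe sets did), 3 had an unadjusted p under 0.05 (8.01% of all probe sets did), 7 lay above and 11 below control, and their median difference was -0.06, beside -0.04 over all probe sets. The groups did not overlap for 5 of the 18 (27.8%, against 14.5% of all probe sets), 3 higher and 2 lower. Control replicate 3 was the lowest control for 13 of the 18 (72.2%, against 34.2%).

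Among dehydrins, 6 of 10 genes were matched, COR47 included, 2 above and 4 below control, with a median of -0.03 and 0 calls. Without COR47 the median was -0.05. LTI30 (AT3G50970), a dehydrin gene strongly induced by cold, had controls at 0.02, 0.45 and -0.48 and 35S-PaWRKY1 arrays at 1.08, 0.72 and 0.69. Its groups did not overlap, as for COR15A, and its difference of 0.83 (SE 0.238, n = 3 per group; 1.78-fold if log2) had an adjusted p of 0.431 in limma. AT1G54410, also named HIRD11, lay below control on all 3 35S-PaWRKY1 arrays, at -0.14, -0.30 and -0.40 against -0.10 for the lowest control. Its difference was -0.28 (SE 0.122, adjusted p 0.622). AT4G39130 was at -0.17 (SE 0.114, adjusted p 0.765). Of the 5 matched dehydrin genes beside COR47, LTI30 thus lay above control and the other 4 below it, none past the test. COR47 also lay above control, but it was chosen with this contrast in view. Of those 4, the 2 not named here were close to 0, at -0.05 (SE 0.0981) and -0.02 (SE 0.137). Over all probe sets 39.5% had a mean above control.

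Among cold-regulated protein genes outside the dehydrins, 4 of 15 were matched, with 0 calls. The 2 above control were the chosen genes COR15A and COR15B, and the 2 others lay below it. COR27 (AT5G42900), a cold-induced gene also under the clock, was at -0.14 (SE 0.171, adjusted p 0.871), at -0.01 without control replicate 1 and at -0.33 without control replicate 3. AT4G33980 was at -0.20 (SE 0.0933, adjusted p 0.652), with groups that did not overlap. The other LEA list gave 3 of 10 genes, the chosen LEA4-5 included, all with a mean above control and 0 calls. LEA18 (AT2G35300) and AtLEA4-1 (AT1G32560), of the same LEA group as LEA4-5, differed by 0.45 (SE 0.337, adjusted p 0.794) and 0.24 (SE 0.206, adjusted p 0.821). Their highest array was 35S-PaWRKY1 replicate 2, at 1.24 and 0.62. Without that array LEA18 was at 0.05 and AtLEA4-1 at 0.05. On 35S-PaWRKY1 replicate 1, where LEA4-5 had its highest value, LEA18 was at -0.18 and AtLEA4-1 at -0.20.

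Of the plant U-box ligases, 7 of 14 were matched, with 0 calls, where 0.0308% of all probe sets were called. They lay 5 above and 2 below control, where 39.5% of all probe sets lay above. Those above included the chosen PUB19, whose sign changed with the setting, and a gene not named here at 0.02 (SE 0.158). PUB25 and PUB26, close relatives known to promote freezing tolerance by marking the CBF repressor MYB15 for breakdown, had the smallest p of this list. PUB26 (AT1G49780) had controls at 0.33, -0.05 and -0.28 and 35S-PaWRKY1 arrays at 0.71, 0.68 and 0.81, with no overlap. Its difference was 0.73 (SE 0.158, n = 3 per group; 1.66-fold if log2; adjusted p 0.357 in limma). PUB25 (AT3G19380) was higher by 0.60 (SE 0.205, adjusted p 0.528), also with no overlap, and by 0.40 without control replicate 3. PUB23, a negative regulator of drought responses, was at -0.12 (SE 0.224, adjusted p 0.923) and AT5G37490 at 0.05 (SE 0.101, adjusted p 0.937). PUB23 was highest in control replicate 3, at 0.42, the array on which PUB19 was lowest.

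Of the C2H2 zinc finger list, 3 of 10 genes were matched, all with a mean below control, STZ through control replicate 1, and 0 calls. AT2G28200 was at -0.58 (SE 0.437, adjusted p 0.797), and with single arrays left out it ran from -0.24 (35S-PaWRKY1 replicate 1 out) to -1.01 (35S-PaWRKY1 replicate 3 out). AT3G53600 was at -0.19 (SE 0.106, adjusted p 0.69). Neither shared the high control replicate 1 of STZ, where they stood at -0.57 and -0.16. In the list of rapid stress and touch genes the 1 matched gene of 14 did: WRKY53, a senescence and defence regulator, had controls at 1.57, -0.72 and -0.85 and 35S-PaWRKY1 arrays at 0.43, -0.85 and -0.89. Its difference was -0.44 (SE 0.688, adjusted p 0.907) and 0.35 without control replicate 1.

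**Figure D5:**
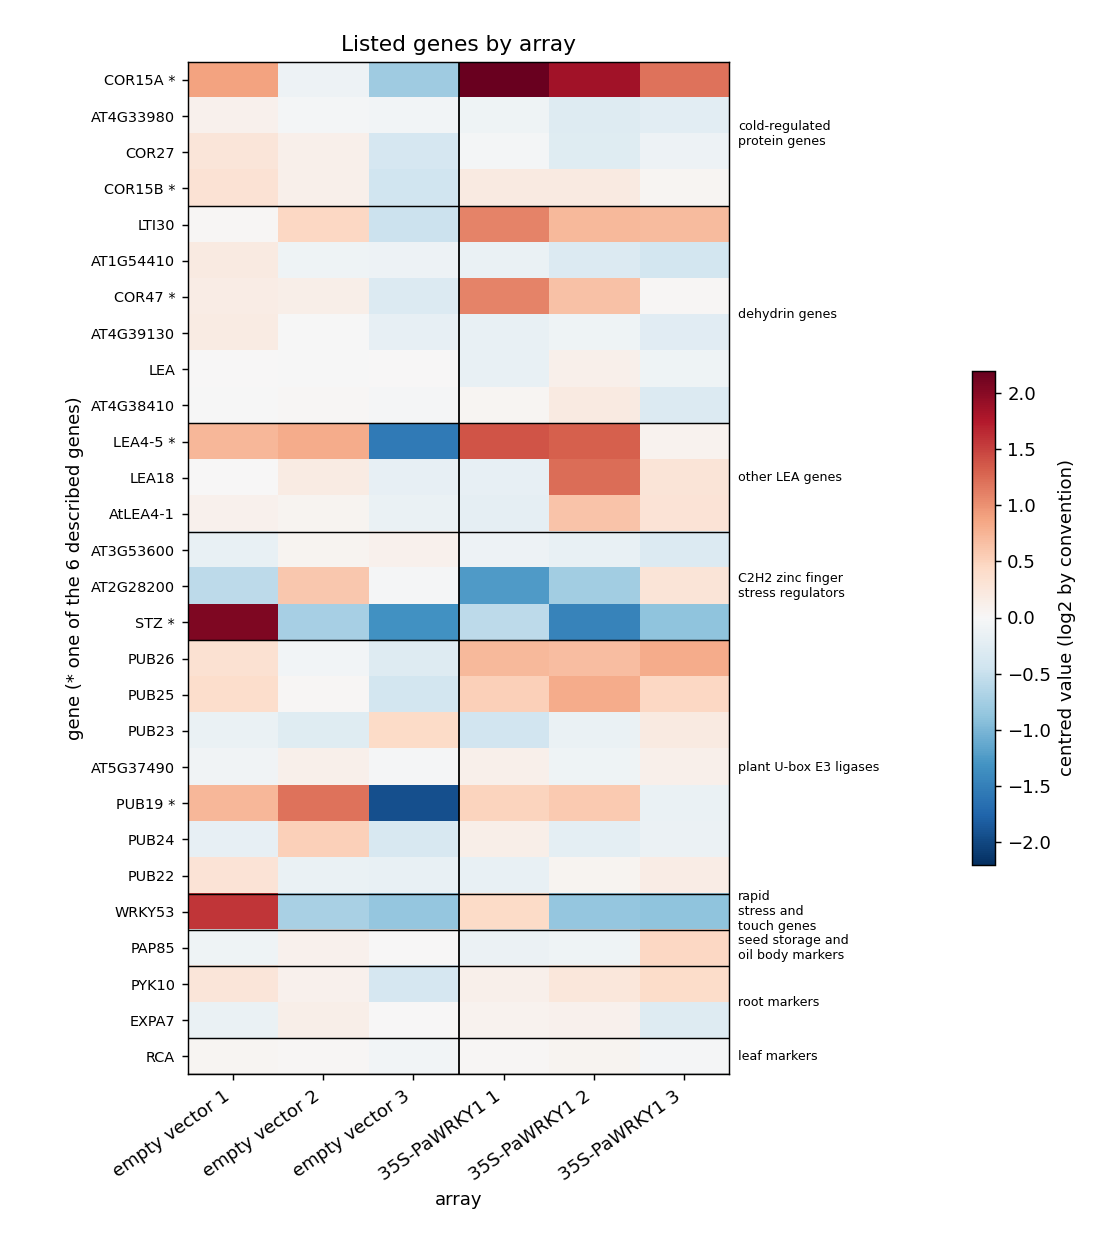
Centred value (colour, log2 by convention) of each matched gene of the lists (rows, the 6 described genes starred) on each array (columns). STZ (2.05) and WRKY53 (1.57) are highest in empty vector replicate 1, and LEA4-5 (-1.55) and PUB19 (-1.93) are lowest in empty vector replicate 3.

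Markers of organs that a seedling sample holds in varying share were few. Of 6 leaf markers 1 was matched, RCA, for Rubisco activase, with arrays between -0.06 and 0.06 and a difference of 0.02 (SE 0.0806). Of 6 root markers 2 were matched, and their mean ran from -0.18 to 0.12 over controls and from 0.06 to 0.17 over 35S-PaWRKY1 arrays. PYK10, a root beta-glucosidase gene, was lowest of all arrays in control replicate 3 (-0.37), as were 5 of the 6 genes (all but STZ). It differed by 0.25 (SE 0.176). EXPA7, of root hairs, lay between the other controls in control replicate 3 (0.02) and was lowest in 35S-PaWRKY1 replicate 3 (-0.29). Its difference was -0.04 (SE 0.137). Of 9 seed storage and oil body markers the 1 matched, PAP85, was highest in 35S-PaWRKY1 replicate 3, at 0.46, where LEA4-5 was lowest of its group, and differed by 0.08 (SE 0.167). The part of organ proportions in the values of the 6 genes was not tested.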

How the data were processed

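The deposited table holds 22810 probe sets on 6 arrays, read as log2 values. MAS5 and RMA are named per the submitters' processing notes, with no role or version. The deposited columns of the 3 control arrays average to 0 in every probe set, the largest absolute mean being 1.3e-06. How arrays were normalized to each other is not given in the sources used here. Array medians differed by at most 0.0601, and values were used as deposited. The medians bear on a shift between arrays and not on a difference in their spread. Quantile normalization, which also evens out the spread, took the number of called probe sets from 7 to 0.

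After leaving out 64 Affymetrix control probe sets, 22746 were tested two-sided in limma 3.58.1 (R 4.3.3; lmFit, then eBayes), p-values were adjusted over all of them by Benjamini-Hochberg, and 0.05 was the threshold. Each SE comes from the moderated variance. Genes were named through GEO's platform annotation (13513 probe sets with 1 gene, 503 with several, 8730 with none given), updated through RefSeq's table of TAIR10.1. Figures were drawn with matplotlib 3.10.9.

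The labels call the arrays biological replicates without naming lines or sowings, so a p-value reflects only how these samples spread, which may be technical. Deviations from group means of same-numbered arrays correlated by 0.314, 0.194 and 0.453 for numbers 1, 2 and 3. All exceed 0.1, and on that ground arrays of equal number were paired in an alternative fit, with the replicate number as a block. Arrays of unlike number ran from -0.406 to 0.171, the highest being control replicate 1 with 35S-PaWRKY1 replicate 2. That value exceeds 0.1 too, so the cut does not single out equal numbers. The pairing thus comes from these same values, and the labels state none. The fit without the block stayed the main one.

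The members and lists were chosen with earlier results of these data known. Named genes are the 6 members, up to 4 matched genes per list with the smallest p, ERD10 as a neighbour, and for each member the 3 named single-gene probe sets with the highest Pearson r. Alternatives were quantile normalization, median centring, array weights, the replicate block, robust eBayes, a threshold of 0.01 and each array left out. Leaving out both replicate 3 arrays and repeating the coefficients were added later. No filter on dim probe sets was possible on centred values. The fit was tested on simulated data.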

Additional observations from a re-analysis of the deposited data

How the results depend on the processing

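The differences of 24 named genes were recomputed under 10 alternatives that can move them, 240 values in all, and 21 changed sign, in 10 genes. The replicate block, robust eBayes and the threshold of 0.01 leave a difference as it is and bear only on its p. With these included, no gene crossed the adjusted threshold; for the 6 chosen genes that is a description and not a test. COR15A, COR47 and LEA4-5 kept their sign in the 10 alternatives. With single arrays left out, COR15B ran from -0.0745 to 0.2997, STZ from -1.64 to 0.0495, PUB19 from -0.665 to 0.903, PUB23 from -0.283 to 0.0842, WRKY53 from -0.868 to 0.35, PAP85 from -0.112 to 0.177, EXPA7 from -0.113 to 0.0884 and RCA from -0.0118 to 0.0448. Sign changes came without control replicate 1 for STZ (0.0495) and WRKY53 (0.35); without control replicate 2 for EXPA7 (0.0309); and without control replicate 3 for COR15B (-0.0745), PUB19 (-0.665), PUB23 (0.0842) and RCA (-0.0118). They also came without 35S-PaWRKY1 replicate 1 for PUB23 (0.027), without replicate 2 for RCA (-0.00068) and without replicate 3 for PAP85 (-0.112) and EXPA7 (0.0884). Without both replicate 3 arrays the changed values were COR15B -0.0226, PUB19 -0.437, AT5G37490 -0.00123, PAP85 -0.111, PYK10 -0.00769 and EXPA7 0.096. Array weights gave PUB19 -0.19, AT5G37490 -0.039 and PAP85 -0.0398, and equal quantiles gave PUB19 -0.224. The cause was not tested.

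Over all probe sets 7 were called. The count was 6 with the replicate block, 7 with median centring, 11 with array weights, 1 with robust eBayes, 1 at the threshold of 0.01, 0 with equal quantiles, 0 without both replicate 3 arrays and 0 to 1 with single arrays left out. Where 0 were called, an unadjusted p under 0.05 was found for 1022 with quantiles, 1914 without both replicate 3 arrays and 1062 without 35S-PaWRKY1 replicate 2. The block ended or made no call among the 6 genes or the 24 listed genes, of which 0 passed in every setting; at an unadjusted p under 0.05, 4 of 24 passed without and 7 with the block, where the share of all probe sets was 8.01% and 10.8%, and the 24 include the 6 chosen genes. With 3 arrays per group and no level or background signal in the values, precision is limited by the number of arrays.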
